A study of Mus musculus with 24 samples.

Results

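The 9 genes described here are the CDC-like kinases Clk1, Clk2 and Clk4 together with Pnisr, Tia1, Luc7l3, Rnpc3, Ttc14 and Wsb1, out of 48709 genes in the count table. They were chosen by name, and the names were selected on measured values: their cortex counts by exposure and sex, and how these went with the share of counts on genes of the type TEC (an annotation class for transcribed regions that still await experimental proof of a gene). The exposure and sex differences of the 9 genes in cortex are therefore given as descriptions without a test. The series holds 24 RNA-seq libraries depleted of ribosomal RNA, 12 from cerebral cortex and 12 from whole blood of mouse neonates. Every combination of tissue, sex and exposure was represented by 3 libraries.

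Dams of the nPM groups breathed re-aerosolized nano-sized particulate matter (nPM, the nano-sized fraction of ambient particles, collected beside a Los Angeles freeway) for 5 hours a day on 3 days a week, from gestational day 2 until birth. Dams of the control groups sat in like chambers with filtered air. The sample labels give the dose as 300 mg/m3 whereas the methods of the study give the same figure in micrograms, and the labels give the strain as C57BL/6J whereas the methods give C57BL/6NJ. The age of the neonates is 3 to 5 days in a field of the labels, and day 5 in their protocol text and in the methods. No group carried a named genetic change. Per the study's methods the neonates of a group came from different litters, and exposure ended at birth. Blood and cortex were taken from the same neonates per the study, but the labels do not say which libraries share an animal.

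CLK kinases phosphorylate serine- and arginine-rich (SR) splicing factors, which releases these factors from nuclear speckles and tunes the choice of splice sites. Transcripts of Clk1 and Clk4 are textbook cases of introns held back in the nucleus: a pool of polyadenylated RNA keeps particular introns, stays out of the cytoplasm, and can be spliced to completion later. Other RNA-binding proteins, SR proteins among them, also limit their own levels through retained introns or through exons that send the transcript to nonsense-mediated decay. Pnisr encodes an SR-related partner of the splicing protein pinin. Tia1 binds U-rich sequence next to weak 5′ splice sites and also takes part in stress granules. Luc7l3 is a relative of a yeast U1 snRNP protein that helps to pick 5′ splice sites. Rnpc3 is a protein of the minor spliceosome. Wsb1 is a substrate receptor of a ubiquitin ligase, and Ttc14 is a tetratricopeptide-repeat protein of little known function, so neither is known mainly as a splicing factor.

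The 9 genes are protein-coding and lie on 5 chromosomes (GRCm38, coordinates of the deposited gene table). Clk1 is at chr1:58410189-58424066 (minus strand), Clk2 at chr3:89164795-89176921 (plus) and Clk4 at chr11:51261730-51281766 (plus). Pnisr is at chr4:21847583-21876475 (plus), Tia1 at chr6:86404219-86433405 (plus), Luc7l3 at chr11:94287890-94321988 (minus), Rnpc3 at chr3:113605067-113630149 (minus), Ttc14 at chr3:33799832-33814860 (plus) and Wsb1 at chr11:79239372-79254671 (minus). No gene of the 9 overlaps another of them.

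The gene annotation itself carries intron retention for 8 of the 9 genes. In the GENCODE M21 annotation of GRCm38 the exon length of each gene was identical to the length in the deposited gene table, so bases that occur only in transcripts of the type retained_intron were part of what was counted. Such bases made up 63.8% of the exon bases of Clk1, 54.8% of Clk2, 59.8% of Clk4 and 63.3% of Tia1. The same share was 19.4% for Wsb1, 19.1% for Rnpc3, 6.44% for Luc7l3 and 5.86% for Ttc14. Among 15409 protein-coding genes with a count in every cortex library the median was 3.43% and the 90th percentile 44.1%, so the 3 kinases and Tia1 lay above that percentile. Pnisr had no retained_intron transcript, and for Pnisr the description as an intron-retaining gene had no basis in this annotation. Of all those protein-coding genes 54.4% had at least 1 retained_intron transcript, against 88.9% of the 9, and 20.2% had both a retained_intron and a nonsense-mediated decay transcript, against 77.8% of the 9. Tia1 had 14 retained_intron transcripts, a number reached by 0.0260% of the genes, and Clk1 and Clk4 had 7 each, reached by 2.05%.

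**Figure D1:**
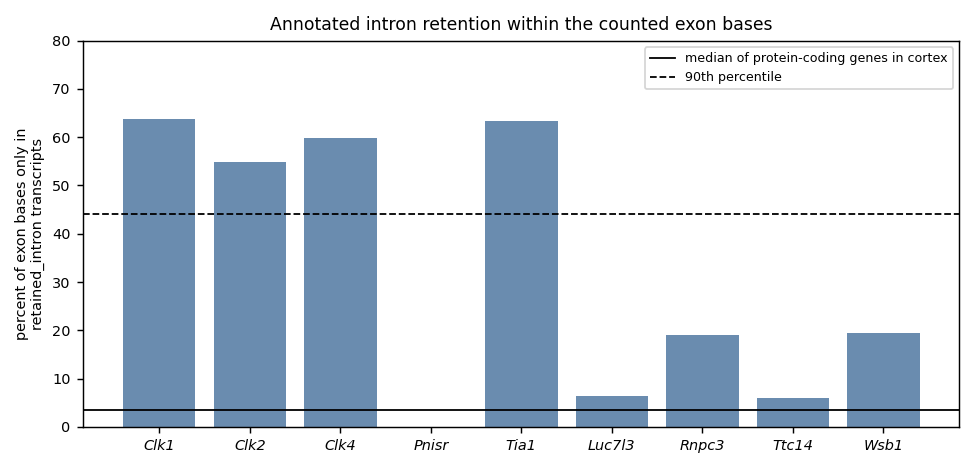
Bars give, for each of the 9 genes, the percent of annotated exon bases that occur only in retained_intron transcripts (GENCODE M21). The solid line is the median (3.43%) and the dashed line the 90th percentile (44.1%) of 15409 protein-coding genes. Clk1, Clk2, Clk4 and Tia1 stand above the dashed line and Pnisr is at 0.

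Introns of the coding transcripts were counted as distinct pairs of start and end. Alternative forms that share a splice site thus count separately, as in Clk2 and Tia1. Of the 9 genes, 5 had coding introns that a retained_intron transcript covers from end to end: 3 of 11 introns in Clk1, 4 of 13 in Clk2, 4 of 13 in Clk4, 6 of 16 in Tia1 and 1 of 15 in Ttc14. All began with GT and ended with AG. An intron of each is printed here because reads on it add to the counts reported here. Each line gives 30 bases over the 5′ splice site, taken from the GENCODE transcript sequences and written 5′ to 3′ on the gene's strand, with the first bases of the intron in capitals.
Clk1 5′ splice site: ttcacacgggGTATGAgtgccttttaaacg
Clk2 5′ splice site: caagagcgatGTACAAgccaaatcgtaaca
Clk4 5′ splice site: tctataaattGTAAGTattcatgaacacac
Tia1 5′ splice site: gatacgagcaGTAAGTacatttgatgccct
Ttc14 5′ splice site: gagccggcagGTATCGgggccgtgacccgg

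The 3′ ends of the same introns follow, again with 30 bases each, and the capitals mark the AG that ends the intron.
Clk1 3′ splice site: cgcccacttgacgtgtccAGaagagtcacc
Clk2 3′ splice site: cctactttctttcgtttcAGatgaaattgt
Clk4 3′ splice site: gttttctgtttccgttgtAGttttacatca
Tia1 3′ splice site: aatctaatctttgtcatcAGgtagtaccgt
Ttc14 3′ splice site: ttccctgctcccgtttccAGagagaacggg

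These introns lie at chr1:58420212-58421082 (minus strand, 871 bases) in Clk1, chr3:89169703-89170048 (plus, 346 bases) in Clk2, chr11:51275579-51275769 (plus, 191 bases) in Clk4, chr6:86418933-86419100 (plus, 168 bases) in Tia1 and chr3:33800437-33800581 (plus, 145 bases) in Ttc14, all in GRCm38. The Clk4 and Tia1 introns open with GTAAGT, the letters that pair best with U1 RNA over these positions, and the introns of Clk1, Clk2 and Ttc14 open with other letters after GT. The GC content was 32.95% in the Clk1 intron, 38.7% in Clk4, 32.1% in Tia1, 51.7% in Clk2 and 73.8% in Ttc14. The counts do not separate intron from exon reads, so the amount of retention in these libraries was not measured.

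The 9 genes were all clearly detected in cortex. Total gene counts ranged from 22301409 to 33804371 per cortex library, and the lowest count of any of the 9 in any cortex library was 523, for Clk2. Markers of cortical neurons, all 6 of which were detected, summed to between 1841 and 2203 CPM (gene counts scaled to a common library size) in cortex, where the blood libraries other than V2 had at most 7.44. Globin genes took 66.2% to 76.8% of the counts in 11 blood libraries. The library V2, from a control female, stood apart from the other blood libraries, with 22461 genes detected where the others had 13254 to 17273, and was left out of the blood comparisons except where stated. Levels below are CPM scaled by the trimmed mean of M-values (TMM) within a tissue.

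Per kilobase of exon, the order of the cortex levels was Wsb1 (23.2 RPKM ± 2.74, SD, n = 12), Luc7l3 (22.9 ± 2.72), Pnisr (13.6 ± 1.84), Clk1 (13.3 ± 1.87), Ttc14 (11.9 ± 2.05), Clk4 (8.70 ± 1.36), Tia1 (8.19 ± 0.967), Rnpc3 (4.90 ± 0.736) and Clk2 (4.08 ± 0.342). The ranges of neighbours in this order did not overlap at 2 places, between Luc7l3 and Pnisr and between Tia1 and Rnpc3. Wsb1 was above Luc7l3 in 7 of 12 libraries and Pnisr above Clk1 in 8 of 12, so these neighbours did not differ beyond their spread. Clk1 was thus the most abundant of the 3 kinases in cortex and Clk2 the least. The exon length includes bases found only in retained_intron transcripts, 63.3% for Tia1 and 0% for Pnisr. The order of the 9 depends on that length: by mean CPM, without it, Tia1 (129) was above Clk1 (108). Reads of overlapping genes could add to some of these levels: Ccdc39, on the opposite strand of Ttc14, had 888 to 1558 counts per cortex library, and Amy1, on the strand of Rnpc3, had 201 to 418. The strandedness of the libraries was not given in the sources used here.

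In cortex, the highest levels of the 3 kinases were in control females. Clk1 was at 133, 134 and 122 CPM in control females and at 107, 93.6 and 99.0 CPM in nPM females, and at 89.6, 99.1 and 90.6 CPM in control males and 108, 109 and 115 CPM in nPM males. Clk1 was thus lower in every nPM female than in any control female, and higher in every nPM male than in any control male. Clk4 was at 62.6, 61.9 and 61.5 CPM in control females, 50.5, 41.3 and 48.0 CPM in nPM females, 43.5, 45.7 and 41.8 CPM in control males, and 49.4, 44.8 and 54.3 CPM in nPM males. The nPM and control females did not overlap for Clk4, whereas the males did, through a single nPM library. Clk2 was at 22.6, 25.4 and 22.3 CPM in control females, 22.1, 19.8 and 23.8 CPM in nPM females, 19.1, 22.1 and 20.7 CPM in control males, and 20.1, 20.1 and 21.3 CPM in nPM males. Clk2 was the gene among the 9 whose nPM and control libraries overlapped in both sexes.

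**Figure D2:**
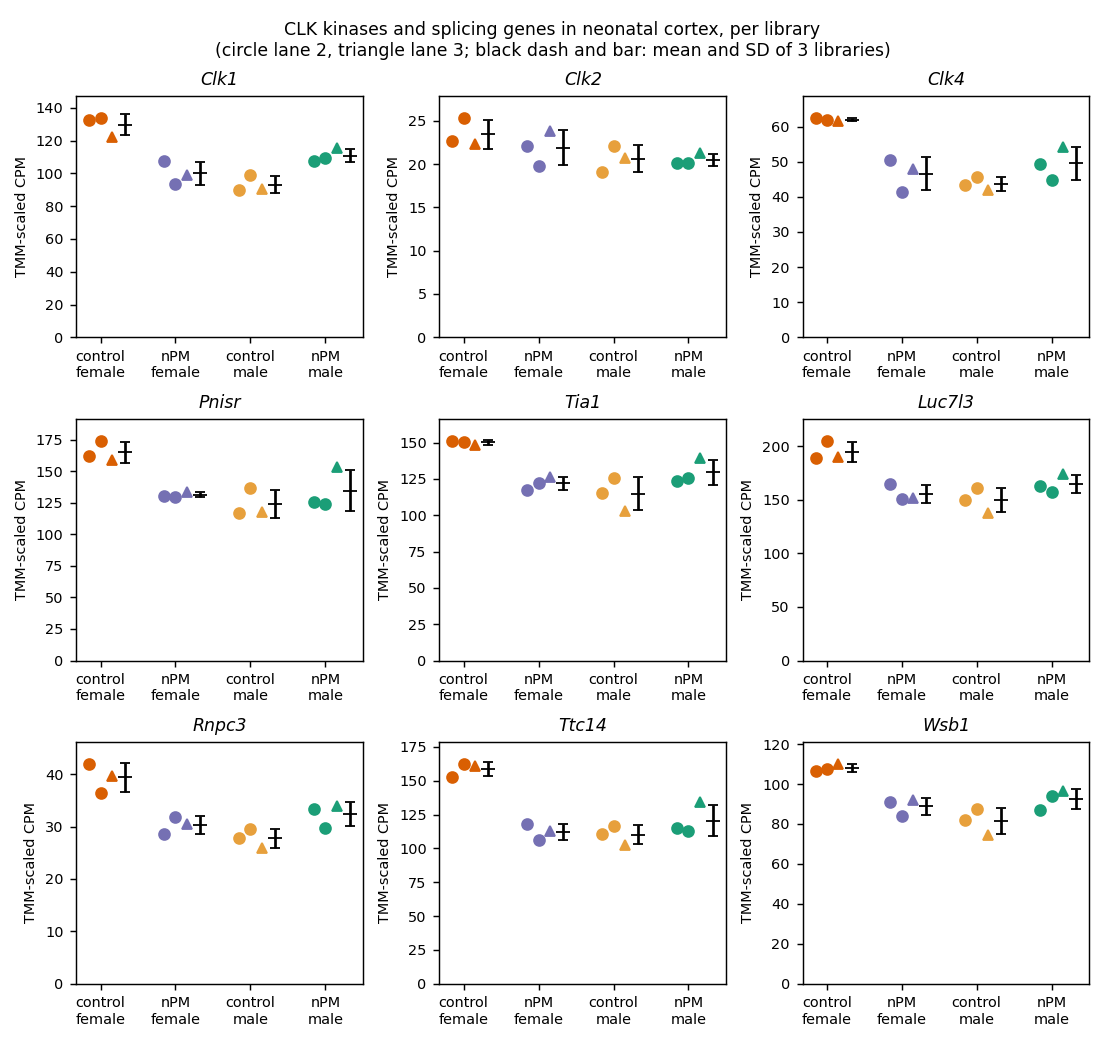
Each panel shows TMM-scaled CPM of a gene in the 12 cortex libraries, by sex and exposure (3 libraries each), with circles for lane 2, triangles for lane 3 and the mean with its SD in black. In 8 of the 9 panels every nPM female lies below every control female. Clk2 shows no such gap.

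The splicing factors followed the order of Clk1 and Clk4. Rnpc3 was at 42.0, 36.5 and 39.7 CPM in control females, 28.6, 31.9 and 30.5 CPM in nPM females, 27.8, 29.6 and 26.0 CPM in control males, and 33.4, 29.7 and 33.96 CPM in nPM males. With Clk1 it was the gene whose groups did not overlap in either sex. Tia1 was at 148 to 151 CPM in control females, 117 to 127 CPM in nPM females, 103 to 126 CPM in control males and 123 to 139 CPM in nPM males. Luc7l3 was at 189 to 205, 151 to 165, 138 to 161 and 158 to 174 CPM in the same order of groups, and Pnisr at 159 to 174, 130 to 134, 117 to 136 and 124 to 153 CPM. For these 3 genes the female groups were apart and the male groups overlapped. Among nPM males the highest Pnisr level, 153 CPM, was in library V23, and the other libraries of that group were at 126 and 124 CPM.

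Ttc14 had the largest fitted difference of the 9 between nPM and control females, given below. It was at 153, 162 and 161 CPM in control females, 118, 106 and 113 CPM in nPM females, 111, 117 and 103 CPM in control males, and 115, 113 and 134 CPM in nPM males. Wsb1 was at 107 to 110 CPM in control females, 83.9 to 91.8 CPM in nPM females, 74.5 to 87.3 CPM in control males and 87.1 to 96.6 CPM in nPM males. Both genes thus had the female groups apart and the male groups overlapping.

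Counted over the 9 genes, every nPM female was below every control female for 8 genes, a pattern that 11.5% of 20857 cortex genes showed. Every nPM male was above every control male for 2 genes (4.29% of all genes). The pattern of Clk1 and Rnpc3, with every nPM female lower and every nPM male higher, was shared by 103 genes (0.494%). Every control male was below every control female for 9 of the 9 (9.36% of all genes), and in nPM animals Clk1 alone was higher in every male than in every female (4.10%). These shares belong to the contrasts that chose the genes, and nothing is read from them. Control females enter both the exposure and the sex differences. With the sexes pooled the nPM and control libraries overlapped for each of the 9 genes (0.197% of all genes were apart in either direction).

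The fitted differences put sizes on this. They come from edgeR with RIN (RNA integrity number) and, with the sexes pooled, sex as covariates. In females the log2 fold change of nPM against control was -0.36 for Clk1 (SE 0.0575), -0.40 for Clk4 (SE 0.0658) and -0.50 for Ttc14 (SE 0.0526), and it was -0.28 to -0.37 for Pnisr, Tia1, Luc7l3, Rnpc3 and Wsb1. For Clk2 it was -0.09 (SE 0.0861). The median of the 9 was -0.33, where the median of all 21731 genes tested was -0.0022. In males it was 0.31 for Clk1 (SE 0.0602), 0.29 for Rnpc3 (SE 0.0872) and 0.05 for Clk2 (SE 0.0950), with a median of 0.25 against 0.0033 over all 21670 genes tested. Without RIN as a covariate the male median was 0.18, and 8 of the 9 values were above 0. With the sexes pooled the values were small, from -0.05 for Wsb1 to -0.19 for Ttc14, with a median of -0.08 that became -0.04 without V11, -0.05 without V12 or V20 and -0.14 without V23 or V24. The difference between the sexes in the response to nPM, male minus female in a fit of all 12 libraries that was added after seeing the data, was 0.62 for Clk1 (SE 0.0948), 0.66 for Ttc14 (SE 0.1000) and 0.08 for Clk2 (SE 0.130).

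**Figure D3:**
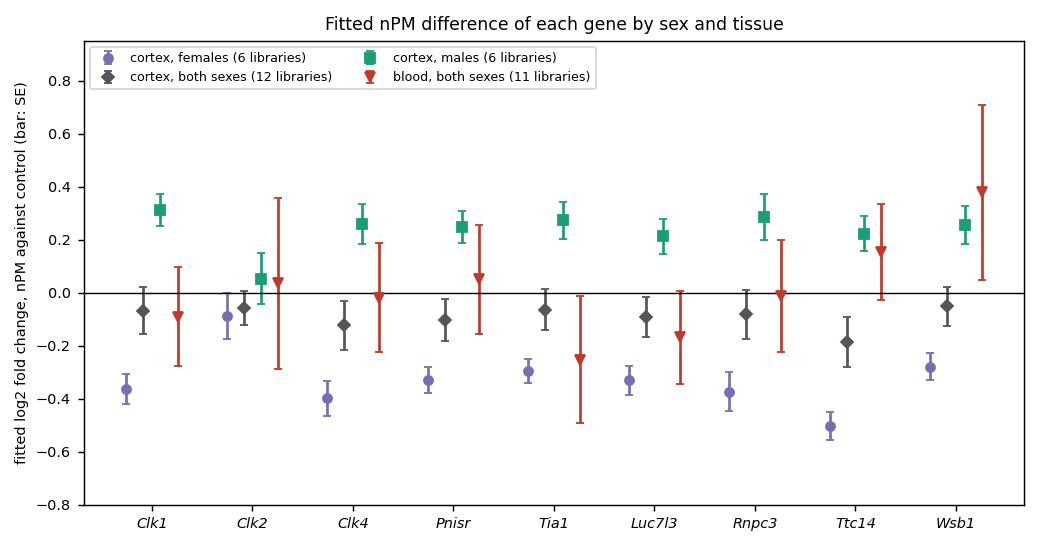
Points give the fitted log2 fold change of nPM against control for each of the 9 genes in female cortex, male cortex, cortex of both sexes and blood of both sexes, with bars of 1 SE. In cortex, with RIN as a covariate, the 9 female values are below 0 and the 9 male values above 0. Clk2 is nearest to 0 in both. The blood values lie on either side of 0 with wider bars.

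Lane was the technical batch given in the labels, and both lanes of the cortex libraries held each sex and exposure. Within lane 2, with 2 nPM and 2 control libraries per sex, the mean log2 difference of nPM minus control in females was -0.19 to -0.49 over the 9 genes. Within lane 3, with 1 library each, it was -0.51 to 0.09, and the value above 0 was that of Clk2. In males it was -0.03 to 0.20 in lane 2, with a median of 0.05, and 0.04 to 0.43 in lane 3, with a median of 0.38. The male difference was thus larger in the lane 3 pair, V23 (nPM) and V24 (control), than in lane 2. Between lanes 0 of the 9 genes passed an adjusted p of 0.05 in edgeR, limma voom or DESeq2, where 0.0288% of 20857 genes passed in edgeR. At an unadjusted p under 0.05 in edgeR 0 of the 9 were found, against 2.55% of all genes.

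Other values moved with these groups. Cortical neuron markers summed to 1841 to 1956 CPM in control females, 1923 to 2032 in nPM females, 2101 to 2203 in control males and 1931 to 1977 in nPM males, so control males, lowest for 8 of the 9 genes on average, were highest for these markers. Glia (6 genes), microglia (5), endothelium (4) and erythroid (6) markers overlapped between nPM and control in both sexes, and no gene of these lists was at 0 throughout cortex. Choroid plexus markers (5 genes) summed to 31.6 CPM in 1 control male and 233 to 504 CPM in the other 11 libraries. Striatum markers (6 genes) summed to 95.5 CPM in 1 control male and 148 to 315 CPM elsewhere. White blood cell markers (6 genes) were at 8.52 to 10.5 CPM in control males and 11.2 to 13.99 CPM in nPM males. These male groups did not overlap. In females the same markers were at 9.17 to 12.2 CPM in control and 10.4 to 11.6 CPM in nPM libraries, which overlapped. The part of these differences in the result was not tested, and in bulk tissue fewer cells of a type and less RNA per cell cannot be told apart.

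Each of the 9 genes was higher in cortex libraries with a larger share of counts on TEC genes, which was the other relation the genes were chosen by. The table holds 2593 TEC genes, none of which overlaps any of the 9, and 1324 had a count in every cortex library. Their share of all gene counts was 0.369% to 0.406% in control females, 0.273% to 0.294% in nPM females, 0.224% to 0.338% in control males and 0.264% to 0.363% in nPM males. The highest share had a 95% Wilson interval of 0.404% to 0.409%, which covers counting error only. The most abundant were 2900097C17Rik at 186 CPM, 9330162G02Rik at 120 CPM and Gm45884 at 101 CPM on average. Over the 12 libraries Pearson's r of log2 CPM with this share was 0.75 for Clk1, 0.42 for Clk2, 0.85 for Clk4, 0.81 for Pnisr, 0.87 for Tia1, 0.84 for Luc7l3, 0.83 for Rnpc3, 0.88 for Ttc14 and 0.81 for Wsb1. Spearman's rho ran from 0.52 for Clk2 to 0.81 for Ttc14.

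**Figure D4:**
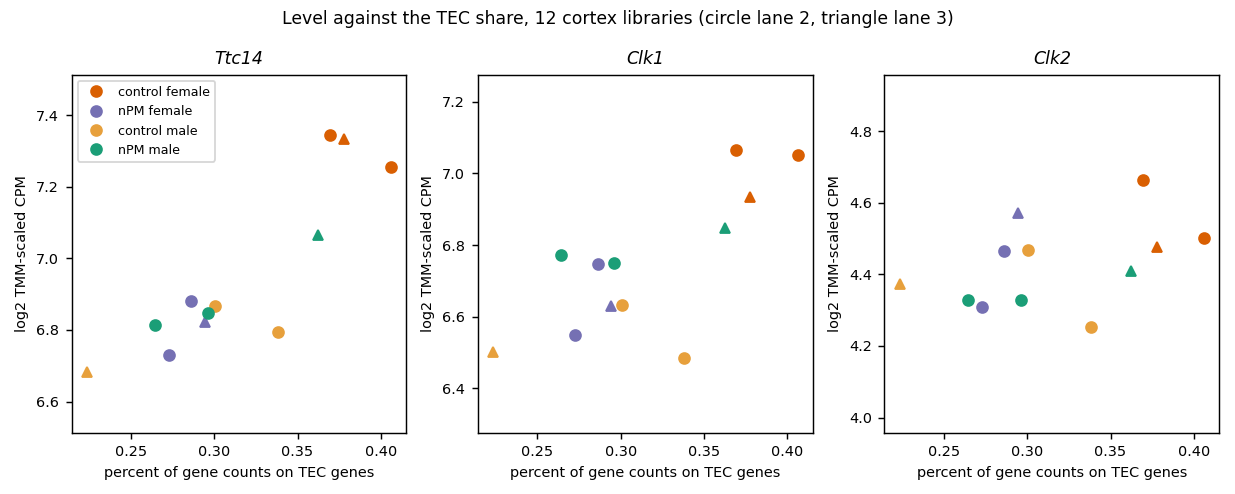
Points are the 12 cortex libraries, with the percent of gene counts on TEC genes on the horizontal axis and log2 TMM-scaled CPM on the vertical axis (each panel spans 1 log2 unit), for Ttc14, Clk1 and Clk2. The 3 control females stand at the upper right for Ttc14 and Clk1, and the relation is loosest for Clk2 (r = 0.42).

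Leaving out the libraries farthest from the median share, V10 and V19 (both control females), lowered the median r of the 9 from 0.83 to 0.72. The median r was 0.85 within the 6 control libraries, 0.75 within the 6 nPM libraries, 0.94 within the 6 females and 0.61 within the 6 males. Among males it became -0.43 without V24 and V23, the libraries with the lowest and the highest share, so there the relation rested on those libraries. Within the 8 libraries of lane 2 it was 0.74, and -0.43 without the control females V10 and V12. After exposure, sex and RIN were removed from both measures the median was 0.79. That removal had no term for a different response of the sexes to nPM. The high values of control females could thus remain in both measures. Over 10266 cortex genes the median r with the TEC share was -0.15 and the 95th percentile was 0.75, which 7 of the 9 exceeded, while 16.8% of the genes had an r at or above that of Clk2. The libraries share their depth and composition in such a correlation, and it is given as a description. Long intergenic RNAs, at 1.35% to 1.41% of counts in control females and 0.965% to 1.116% in control males, moved the same way as the TEC share. Processed pseudogenes, at 0.346% to 0.361% in control females and 0.374% to 0.387% in control males, moved the other way.

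The 9 genes also moved with each other. They were chosen on their pattern by exposure and sex in these same libraries, so this likeness is given as a description only. Their mean standardised profile was 1.26 to 1.61 in control females and -1.38 to 0.48 in the other cortex libraries. The correlation of each gene with the mean of the other 8 was 0.94 for Clk1, 0.96 for Clk4, 0.96 for Pnisr, 0.95 for Tia1, 0.96 for Luc7l3, 0.97 for Ttc14, 0.95 for Wsb1, 0.87 for Rnpc3 and 0.66 for Clk2, over the 12 cortex libraries. The genes outside the 9 whose log2 CPM was most like their mean standardised profile were Rbm5 (r = 0.97), Nvl (0.96), Arglu1 (0.96), Rbm39 (0.95), Rtel1 (0.95) and Usp48 (0.95), among 10257 genes with a mean of at least 10 CPM. Rbm5 and Rbm39 are RNA-binding splicing factors and Arglu1 an arginine- and glutamate-rich protein of nuclear speckles. A total of 48 genes had an r of at least 0.9 with the profile and 68 an r of at most -0.9.

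Other genes of the splicing machinery and of RNA surveillance were read in 7 lists with 84 genes. With the sexes pooled 0 of the 84 genes passed an adjusted p of 0.05 for nPM in cortex by edgeR, limma voom or DESeq2, where 0.0144% of 20857 genes passed in edgeR. At an unadjusted p under 0.05 there were 5 of the 84 in edgeR, against 5.67% of all genes. In females 16 of the 84 passed in edgeR, each of them lower in nPM, where 1.11% of 21731 genes passed in either direction. In males 0 passed in edgeR, as over all 21670 genes (0%), and 6 were at an unadjusted p under 0.05 (4.51% of all genes). For the difference between the sexes 0 passed (0% of all genes) and 32 were at an unadjusted p under 0.05 (9.68% of all genes), so a difference between females and males was not shown for single genes of these lists. The 16 calls in females became 3 without V11, 4 without V12, 5 without V19, 8 without V10 and 9 without V20, and 0 with the TEC share as a covariate. Over all genes tested the 241 calls in females became 23, 56, 66, 42 and 67 in the same order, and 11 with the TEC share. These lists were drawn up with earlier results of these data known and are read in the libraries that the 9 genes were chosen on, so they are not independent of that choice.

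The calls in females fell mainly in 3 lists. Of 8 nuclear long non-coding RNAs 5 fell (Kcnq1ot1, Malat1, Snhg11, Meg3 and Mirg) with a list median of -0.45. Malat1, an abundant RNA of nuclear speckles, fell by 0.46 on the log2 scale in females (SE 0.0570, adjusted p = 0.0040), and was at 0.20 in males (SE 0.122, adjusted p = 0.96). Mirg fell by 0.40 in females (SE 0.0623, adjusted p = 0.013), and Neat1, which scaffolds paraspeckles, was at -0.45 (SE 0.108, adjusted p = 0.069). Of 18 other genes known for retained introns 6 fell (Nktr, Arglu1, Srrm2, Rbm5, Rsrp1 and Ccnl2) with a list median of -0.22, and 14 were at an unadjusted p under 0.05, where 15.4% of all genes were. Rsrp1 fell by 0.29 (SE 0.0597, adjusted p = 0.038), and the values of Zranb2 and Pabpn1 did not pass. Of 10 U1 snRNP and 5′ splice site factors 3 fell, Prpf39 by 0.35 (SE 0.0552, adjusted p = 0.013), Luc7l2 by 0.27 (SE 0.0426, adjusted p = 0.014) and Snrnp70, a core U1 protein, by 0.31 (SE 0.0606, adjusted p = 0.033). In males the values of 8 of 8, 18 of 18 and 10 of 10 genes of these lists were above 0, and 0 passed.

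The remaining lists hold SR proteins, further kinases, minor spliceosome proteins and nonsense-mediated decay factors. In males 13 of 13, 5 of 10, 2 of 11 and 7 of 14 genes of these lists, in that order, were above 0. Of 13 SR proteins, the substrates of CLK kinases, Srsf5 fell in females by 0.32 (SE 0.0523, adjusted p = 0.016), and 12 did not pass. Tra2b and Srsf12 did not pass in either sex. Of 10 other kinases that act on SR proteins or on splicing 0 passed in females and 2 were at an unadjusted p under 0.05, and Clk3, the CLK kinase outside the 9, was at -0.11 in females (SE 0.0657, adjusted p = 0.45) and 0.04 in males (SE 0.0788, adjusted p = 0.98). Dyrk1b, Cdk12 and Prpf4b, the kinases with the smallest p in the pooled fit, did not pass there either. Of 11 minor spliceosome proteins, the partners of Rnpc3, 0 passed in females, with a list median of 0.02, and Scnm1, Zcrb1 and Snrnp25 had the smallest p in the pooled fit. Of 14 nonsense-mediated decay factors Smg1, a kinase of this pathway, fell in females by 0.26 (SE 0.0548, adjusted p = 0.043), while the list median was -0.0025 and Smg5 and Smg9 did not pass.

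Between males and females in cortex, with both exposures in the fit, the log2 difference of males minus females was below 0 for all 9 genes, from -0.15 for Clk2 (SE 0.0701) to -0.26 for Clk4 (SE 0.103). The genes were chosen on these libraries with sex in view, so no test is given.

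RNA integrity did not separate the groups, at 9.4 to 9.8 in control and 9.4 to 9.9 in nPM cortex. For the slope with RIN in cortex 0 of the 9 genes passed in edgeR, limma voom or DESeq2, which 0% of all genes did in edgeR, and 0 were at an unadjusted p under 0.05 in edgeR (4.18% of all genes). The slopes ran from -0.35 per unit of RIN for Clk1 (SE 0.311) to 0.04 for Pnisr (SE 0.282).

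Blood values were not used to choose the genes. With the sexes pooled the nPM and control libraries overlapped for all 9 genes in blood (0.221% of 9977 genes were apart in either direction). Within males the groups were apart for Clk2, Pnisr and Wsb1, with higher levels after nPM. Clk2 was at 1.36 to 1.73 CPM in nPM males and 0.939 to 1.27 CPM in control males. In the same order Pnisr was at 5.41 to 5.59 and 3.45 to 5.01 CPM. Wsb1 was at 2.85 to 3.51 and 0.566 to 2.43 CPM. The remaining genes overlapped in males, and all 9 overlapped in females. The nPM effect within a sex was not tested in blood. Clk1 was at 15.6 and 13.8 CPM in control females, 14.8, 10.2 and 8.74 CPM in nPM females, 11.7, 10.4 and 10.5 CPM in control males, and 10.3, 11.3 and 13.9 CPM in nPM males. The nPM and control values of Clk1 thus overlapped in both sexes, while the 2 control females were above the 3 control males. For the other genes the lowest, median and highest level over the 11 libraries were 0.480, 1.27 and 1.73 CPM for Clk2, 1.65, 2.97 and 3.52 CPM for Clk4, 3.45, 5.01 and 7.23 CPM for Pnisr, 1.53, 2.67 and 4.55 CPM for Tia1, 4.43, 5.77 and 6.98 CPM for Luc7l3, 3.36, 3.98 and 6.30 CPM for Rnpc3, 4.96, 6.36 and 8.46 CPM for Ttc14 and 0.566, 2.42 and 3.51 CPM for Wsb1. The lowest counts behind these values were 8 for Wsb1 and 9 for Clk2. For the nPM effect 0 of the 9 genes passed in edgeR, limma voom or DESeq2, and 0 were at an unadjusted p under 0.05 in any of them. Over all 9977 genes 0% passed in edgeR and 3.11% were at an unadjusted p under 0.05. The log2 fold change was -0.09 for Clk1 (SE 0.187), 0.03 for Clk2 (SE 0.321), -0.02 for Clk4 (SE 0.205), -0.25 for Tia1 (SE 0.239) and 0.38 for Wsb1 (SE 0.330), with an adjusted p of 1.00 for each of the 9. The errors were 0.175 to 0.330 in blood against 0.0626 to 0.0950 in the cortex of both sexes, so these values do not show that the 9 genes were unaffected in blood. With V2 included 0 passed as well, and the values ran from -0.48 for Tia1 to 0.15 for Rnpc3.

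In blood 0 of the 9 genes passed between males and females in edgeR, limma voom or DESeq2, and 0 were at an unadjusted p under 0.05 (0% and 4.54% of all genes in edgeR). The same held for the slope with RIN, which ranged from 7.5 to 9.3 in these libraries (0% and 4.63% of all genes). The TEC share in blood was 0.00428% to 0.0145%, far below that of cortex. Its correlation with the 9 genes had a median of 0.32 and ran from -0.36 to 0.73, with 7 of the 9 above 0. This median depended on the setting: it was 0.61 on library totals alone (9 of 9 above 0), 0.55 by Spearman's rho, 0.58 with V2 included and 0.48 without V5, and without V4 it was 0.25 with 5 of the 9 above 0.

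Per kilobase of exon Clk1 was the highest of the 9 in blood, at 1.47 RPKM ± 0.275 (SD, n = 11), and its range did not overlap that of Luc7l3, the next at 0.791 ± 0.126. Tia1 was the lowest at 0.174 ± 0.0480, and each neighbouring pair of the remaining order overlapped. Clk1 ranked the fourth in cortex and Wsb1, the highest in cortex, was below Clk1, Luc7l3, Rnpc3 and Ttc14 in blood. These ranks too depend on the exon length: by mean CPM in blood Tia1 (2.73) was above Wsb1 (2.21) and Clk2 (1.18).

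**Figure D5:**
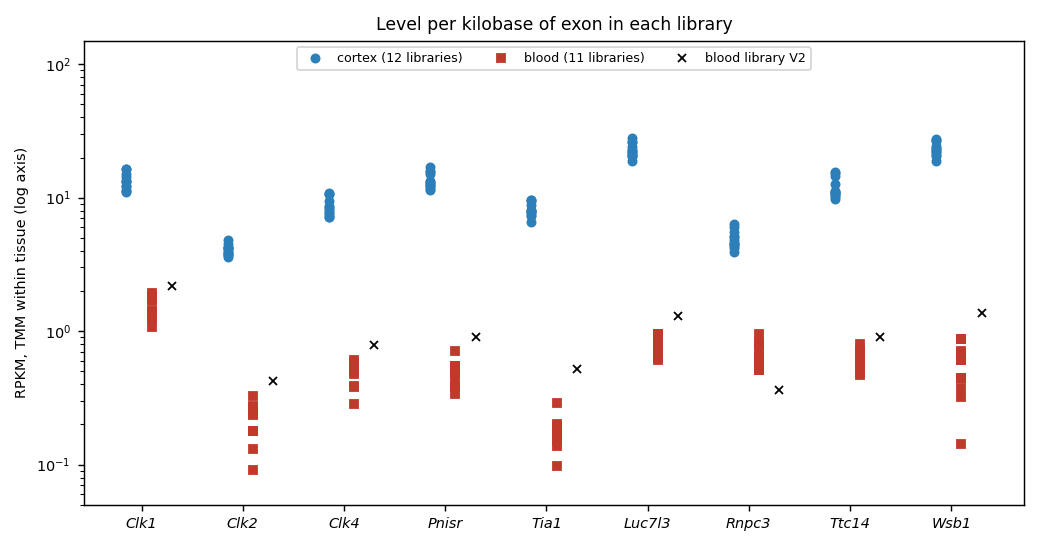
Points give the level per kilobase of exon (RPKM, log axis) of each gene in the 12 cortex libraries, the 11 blood libraries and the blood library V2. Values are scaled within each tissue and globin RNA takes most of the blood counts, so heights are to be compared within a tissue. Clk1 is highest in blood, where Wsb1 and Luc7l3 lead in cortex.

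Between 6 control cortex and 5 control blood libraries, treated as independent although the tissues share animals that the labels do not name, 7 of the 9 genes passed in edgeR, where 86.2% of 10275 genes passed in either direction. Of the 9, 5 were higher in cortex (46.8% of all genes) and 2 were lower. Relative to blood, Wsb1 was higher in cortex by 1.49 on the log2 scale (SE 0.181, adjusted p = 8.94e-07), Tia1 by 1.27 (SE 0.148, adjusted p = 4.91e-07), Pnisr by 0.69 (SE 0.126, adjusted p = 8.03e-05) and Luc7l3 by 0.64 (SE 0.127, adjusted p = 0.00019). Ttc14 was higher by 0.32 (SE 0.120, adjusted p = 0.022). Clk1 was at -1.003 (SE 0.0945, adjusted p = 3.55e-08) and Rnpc3 at -1.19 (SE 0.169, adjusted p = 5.35e-06), while Clk2 and Clk4 did not pass. RIN was 9.4 to 9.8 in these cortex libraries and 7.5 to 9.3 in these blood libraries, so RIN had no term in the fit. RNA integrity and tissue cannot be told apart here. Lane 1 held only blood and lane 2 only cortex, and lane 3 held both. With lane as a covariate 7 of the 9 passed, where 8006 of 10275 genes did.

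These differences depend on the scale. The median over all genes tested was 0.24 with TMM and 4.66 with library totals alone. On library totals 9 of the 9 passed as higher in cortex, where 9226 of 10275 genes did. Clk1 was higher by 3.46 and Rnpc3 by 3.27 on the log2 scale. Both values are below the median of all genes by more than 1 log2 unit. Ttc14 did not pass with RLE size factors (0.08, adjusted p = 0.56), DESeq2 (adjusted p = 0.47), V2 included (adjusted p = 0.080), V8 left out (adjusted p = 0.056) or genes with a count in any library kept (adjusted p = 0.25). With the filter filterByExpr, where the median of all genes was 1.01, Ttc14 (0.03, adjusted p = 0.83) and Luc7l3 (0.34, adjusted p = 0.056) did not pass. With that filter 5 of the 9 passed, where 14305 of 18612 genes did. Taking out the globin genes before scaling changed none of the 7 calls.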

How the data were processed

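RNA of cortex and blood was sequenced after RiboZero Gold depletion. The authors checked the reads with FastQC, trimmed adapters with Trimmomatic, aligned to mm10 (GRCm38) with HISAT2 and counted reads on Gencode M11 genes with featureCounts 1.5.0-p3. The deposited table holds raw counts of 48709 genes in 24 libraries, without normalization, and the deposited gene table holds coordinates, exon lengths, gene types and the authors' mean expression, which was not used. Reads were not realigned.

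The tests were two-sided quasi-likelihood F tests of edgeR 4.0.16 in R 4.3.3, with TMM factors and a prior count of 0.5, over genes that reached 1 count in all libraries fitted, and p-values were adjusted by Benjamini-Hochberg over all genes tested, at an adjusted p of 0.05. Covariates were exposure, sex and RIN, exposure and RIN within a sex, and sex between tissues. The fit was checked on simulated data. Alternatives were limma voom (3.58.1), DESeq2 (1.42.0), RLE or no scaling factors, other filters, no RIN, lane or TEC share as a covariate, each library left out in turn, and V2 included. The study excluded 1 blood library without naming it, and V2 was taken to be that library from its counts. Libraries carry unique numbers, so no paired analysis was possible because the labels pair no samples. Within a tissue the libraries come from separate neonates per the study's methods, while the tissues share neonates that the labels do not match, and p-values measure the spread between libraries. The labels name no litter, so a male and a female of the same exposure could be littermates. The fits treat them as independent. A planned test of the 9 genes between the sexes in cortex is not reported, since the genes were chosen on those values.

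The 9 genes and all gene lists were chosen with earlier results of these data known. All 9 are named, with at most 3 genes of each list (smallest p for nPM in cortex of both sexes), the 6 genes most like the 9 and the 3 most abundant TEC genes. Further genes of a list were named after their values were seen, where they passed. The annotated introns come from GENCODE M21 on GRCm38, matched for 9 of the 9 genes by Ensembl identifier.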

Additional observations from a re-analysis of the deposited data

Results flagged for a closer look

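Clk1 and Rnpc3 had every nPM female below every control female and every nPM male above every control male in cortex. The fitted nPM difference of males minus females was 0.62 for Clk1 and 0.61 for Rnpc3 on the log2 scale. The difference was not tested, because these genes were chosen on this contrast.

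Of 50 sets of 5 or 6 libraries of an exposure and tissue, 5 held a library far from the others by Dixon's criterion at 95%, which chance alone flags in about 1 of 20 sets. Library V23, an nPM male, was apart from the other nPM cortex libraries in Pnisr (153 CPM) and in the TEC share (0.363%). V2, a control female, was apart among the blood controls in Clk2 (2.22 CPM) and in the TEC share (0.153%). V5, an nPM male, was apart among the nPM blood libraries in the TEC share (0.0145%). The level in V2 depends on scaling: on library totals alone Clk1 was at 116 CPM in V2 and at 7.65 to 19.9 CPM in the other 11 blood libraries, where TMM scaling gives 17.7 CPM and 8.74 to 15.6 CPM. Rnpc3 in V2 was at 15.7 CPM on library totals (others 2.59 to 6.30 CPM) and at 2.40 CPM with TMM (others 3.36 to 6.30 CPM), so its order against the other libraries turned with the scaling.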

How the results depend on the processing

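Of 248 values of the counts and medians under an alternative, 236 kept within the limits set for them (1.5 times for a count, the spread between replicates for a median). When genes with a count in any single library were kept, the list genes past it for nPM became 2 in cortex of both sexes (from 0), 30 in females (from 16) and 1 in males (from 0). With the TEC share as a covariate the median log2 fold change of the 9 genes became 0.0055 in cortex of both sexes and -0.72 in females. In that fit of females the list genes past the threshold became 0, where 11 of 21731 genes passed, and Smg1 turned to 0.20. In females the TEC share of nPM and control libraries did not overlap, so share and exposure cannot be told apart there. Without RIN the male median was 0.18. With library totals alone Clk1 and Rnpc3 turned to 3.46 and 3.27 between cortex and blood. Leaving out each library in turn gave 3 to 19 list genes in females (8 without V10, 3 without V11, 4 without V12, 5 without V19, 9 without V20). Between tissues 6 to 7 of the 9 genes passed when a library was left out, but the control female blood libraries V4 and V17 were not left out there. The causes were not tested. The blocked fit does not apply, since no replicate number pairs libraries. Depth limits the blood values, where counts went down to 8 for Wsb1.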
